A study of Mus musculus with 32 samples.

Results

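Expression of 8 genes that mark the projection neurons of the striatum was followed in the amygdala and hippocampus of mice lacking *Kdm5c*, 1 copy of *Kmt2a*, or both. The genes were *Adora2a*, *Ppp1r1b*, *Rgs9*, *Pde10a*, *Rarb*, *Syndig1l*, *Scn4b* and *Gng7*, taken by symbol from the 53715 genes of the count table. All 8 were counted in each of the 32 libraries, the lowest expected count being 38, for *Adora2a* in the hippocampus.

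Medium spiny neurons are inhibitory projection neurons that make up most of the striatum. They read dopamine and adenosine through receptors coupled to G proteins that raise or lower cyclic AMP (cAMP). Some express the dopamine receptor gene *Drd1*, and others express *Drd2* together with the adenosine receptor gene *Adora2a*. The striatum lies next to the amygdala, and neurons with a similar gene set are also found in the central and intercalated nuclei of the amygdala, whereas principal neurons of the hippocampus do not carry this set.

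The mice were adult males, F1 hybrids of 129S1/SvImJ fathers heterozygous for *Kmt2a* and C57BL/6J mothers heterozygous for *Kdm5c*. KMT2A writes and KDM5C erases methyl marks on histone H3 lysine 4, and the study asked whether lowering either enzyme eases the deficits that come with loss of the other. WT, *Kmt2a*-HET (*Kmt2a* +/-), *Kdm5c*-KO (*Kdm5c* -/y) and double-mutant (DM, both alleles) males were represented by 4 mice each, and the 2 regions came from the same 16 mice. Both alleles were present in all cells from conception, so none of the groups isolates a cell type or an age, and the *Kmt2a* allele lacks a pair of exons that had been flanked by loxP sites.

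Each library held 19215489 to 26033593 gene counts for the amygdala, against 19322259 to 27798976 for hippocampal tissue, and 3 counts corresponded to at most 0.156 CPM (counts scaled to the library total). The gene totals do not isolate the deleted exons. Normalised counts of *Kdm5c* were 1184 to 1481 in *Kdm5c*-KO and DM hippocampus and 1463 to 1963 in the other hippocampal libraries. In the amygdala they were 1179 to 1400 in *Kdm5c*-KO and DM and 1177 to 1965 in the others, so that the ranges overlapped in both regions, and those of *Kmt2a* overlapped between all genotypes. Of the 4 cholinergic interneuron genes, which mark another cell of the striatum, all were detected in the amygdala, at a summed 33.1 to 71.7 CPM in 15 libraries. In WT amygdala replicate 1 the sum was 4.26 CPM, and that library also had the highest sum of 6 cortical and basolateral excitatory neuron genes (1956 CPM against 431 to 1121). Hippocampus replicate 1 of *Kdm5c*-KO also stood apart from the other hippocampal libraries and is described with the results it touches.

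Levels were compared between genes per kilobase of exon. In the amygdala *Ppp1r1b* was the most abundant of the 8, at 5511 ± 2495 normalised counts per kb (SD, n = 16), and it was above *Gng7* in 16 of 16 libraries. *Gng7* (2036 ± 725 per kb) was above *Scn4b* (1031 ± 599 per kb) in 16 of 16, and *Rarb* was lowest at 65.8 ± 31.1 per kb. The 5 genes between *Gng7* and *Rarb* had overlapping ranges, although the order *Scn4b*, *Adora2a*, *Syndig1l*, *Pde10a*, *Rgs9* held between neighbours in 14 to 16 of 16 libraries. In the hippocampus *Gng7* led with 1477 ± 230 per kb, above *Ppp1r1b* (858 ± 518 per kb) in 15 of 16. The means of *Syndig1l*, *Adora2a* and *Rgs9* in the hippocampus, 48.0, 42.7 and 36.8 per kb, lay within 1 SD of each other. Within libraries *Syndig1l* lay above *Adora2a* in 15 of 16, and *Adora2a* lay above *Rgs9* in 1 of 16, the SD of *Adora2a* (98.3 per kb) resting on *Kdm5c*-KO replicate 1.

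**Figure D1:**
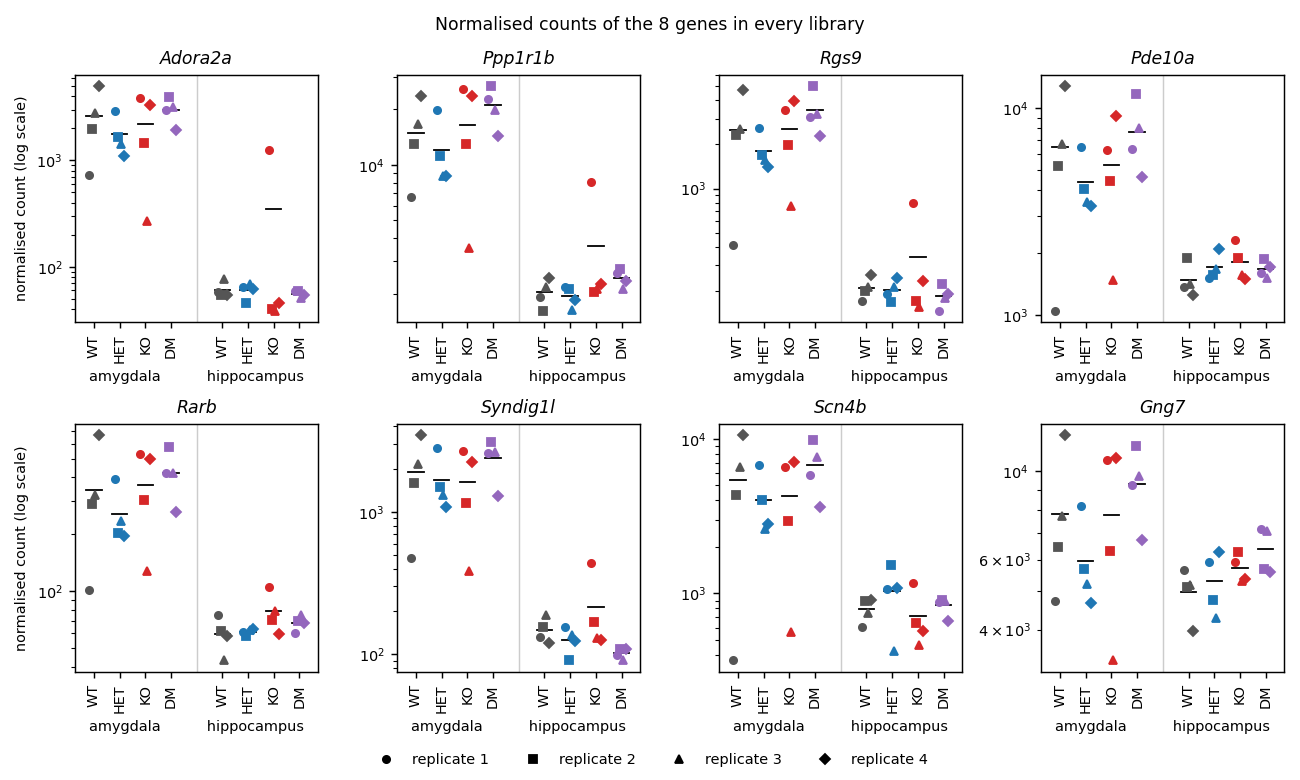
Normalised counts (log axis, a scale for each gene) of the 8 genes in the 4 genotypes of each region, with 1 point per library shaped by replicate number and a bar at the group mean. In the amygdala the low points belong to WT replicate 1 and *Kdm5c*-KO replicate 3, and in the hippocampus *Kdm5c*-KO replicate 1 is high for *Adora2a*, *Ppp1r1b*, *Rgs9* and *Syndig1l*.

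The receptor of the set, *Adora2a* (chr10:75316877-75334784, plus strand, mm10, GENCODE M21), encodes an adenosine receptor that raises cAMP in the neurons that carry it. Its normalised counts in the amygdala were 729, 1964, 2789 and 5019 for the WT mice, 2923, 1664, 1413 and 1108 for *Kmt2a*-HET mice, 3824, 1468, 269.6 and 3301 for *Kdm5c*-KO mice, and 2942, 3918, 3159 and 1926 for DM mice (replicates 1 to 4). In the hippocampus they were 58.5, 53.8, 76.6 and 54.1 for the WT mice, 64.4, 45.3, 68.4 and 62.4 for *Kmt2a*-HET mice, 1259, 40.3, 38.8 and 45.8 for *Kdm5c*-KO mice, and 58.9, 59.4, 50.5 and 54.0 for DM mice. The 4 genotypes overlapped in the amygdala, 15 of the 16 hippocampal libraries lay below all amygdala libraries, and the exception was *Kdm5c*-KO replicate 1. *Adora2a* fell by 5.43 ± 0.79 on the log2 scale (estimate ± SE) from the amygdala to the hippocampus of WT mice, by 4.89 ± 0.79 in *Kmt2a*-HET, by 5.74 ± 0.79 in DM and by 2.68 ± 0.79 in *Kdm5c*-KO, where the value without mouse 1 was -5.34 (DESeq2, adjusted p from 1.57e-11 to 0.00500 over the 4 genotypes).

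The region comparison asked whether the 8 genes were lower in the hippocampus within each genotype. With DESeq2 at an adjusted p under 0.1, 8 of 8 were lower in the hippocampus of WT mice and 7 of 8 in each of the 3 mutants, where *Gng7* did not pass. Of all genes tested, 11.3% were lower in WT hippocampus, 14.8% for *Kmt2a*-HET mice, 12% for *Kdm5c*-KO mice and 13.8% for DM mice. Averaged over the 4 genotypes 8 of 8 were lower, against 23.9% of all genes tested. In bulk tissue, fewer cells of a type and less RNA per cell cannot be told apart. With the mouse as a block, 7 of 8 were lower in WT, where the call of *Gng7* was lost (log2 fold change -0.57, adjusted p = 0.192).

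Of the genes that act on cAMP and its effectors, *Ppp1r1b* (chr11:98348404-98357796, plus strand) encodes DARPP-32, a protein that inhibits protein phosphatase-1 once protein kinase A has phosphorylated it. Its normalised counts were 3536 to 26866 (amygdala) and 1618 to 8092 (hippocampus), lower in the hippocampus in 16 of 16 mice, with a log2 fold change of hippocampus against amygdala of -2.70 ± 0.23 (mean of 4 genotypes). *Rgs9* (chr11:109225355-109298129, minus strand), a regulator that shortens G protein signalling, ran from 411 to 5033 (amygdala) and 147 to 801 (hippocampus), with a log2 fold change of -3.46 ± 0.26, and was also lower in 16 of 16 mice. *Pde10a* (chr17:8525372-8986648, plus strand), the phosphodiesterase that degrades cAMP and cGMP in these neurons, ran from 1050.2 to 12811 and from 1243 to 2303, with a log2 fold change of -1.81 ± 0.23, and was lower in 14 of 16 mice. The ranges of the regions overlapped for all 3 genes, but for *Ppp1r1b* and *Rgs9* only through *Kdm5c*-KO hippocampus replicate 1 (8092 and 801). The next highest hippocampal values of *Ppp1r1b* and *Rgs9*, 2720 (DM replicate 2) and 258 (WT replicate 4), lay below their lowest amygdala values.

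*Rarb* (chr14:16430839-16819156, minus strand) encodes a nuclear receptor for retinoic acid, and it was lower in the hippocampus in 16 of 16 mice, with a log2 fold change of -2.36 ± 0.19. Of the membrane proteins, *Syndig1l* (chr12:84677277-84698831, minus strand), a relative of a synapse differentiation factor, was lower in 16 of 16 mice, at -3.72 ± 0.25. *Scn4b* (chr9:45138395-45154152, plus strand), an auxiliary subunit of voltage-gated sodium channels, was lower in 15 of 16 mice, at -2.59 ± 0.31. *Adora2a* and these 6 genes passed the test in each of the 4 genotypes, and the adjusted p of the mean over genotypes lay between 6.27e-48 (*Syndig1l*) and 6.80e-14 (*Pde10a*). The call of *Pde10a* ended without *Kdm5c*-KO mouse 4 (-1.09, adjusted p = 0.162) and without *Kmt2a*-HET mouse 1 (-1.04, adjusted p = 0.165) in those genotypes.

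*Gng7* (chr10:80948624-81014945, minus strand) encodes the gamma subunit of the G protein that couples dopamine and adenosine receptors to adenylyl cyclase in the striatum. It was the exception in size, with a mean log2 fold change of -0.45 ± 0.13 (adjusted p = 0.00211), and lower in the hippocampus in 13 of 16 mice. Its amygdala counts were 4720, 6462.5, 7735 and 12306.5 (WT), 8180.1, 5690, 5216 and 4668 (*Kmt2a*-HET), 10665, 6319, 3348 and 10803 (*Kdm5c*-KO) and 9216, 11582.5, 9710.2 and 6713.5 (DM). Its hippocampal counts were 5636, 5114, 5169 and 3976 (WT), 5930, 4755, 4285 and 6286 (*Kmt2a*-HET), 5909, 6266, 5297 and 5359 (*Kdm5c*-KO) and 7149, 5680.2, 7068 and 5572 (DM), all within the range of the amygdala. Its fall passed the test in WT (-0.65 ± 0.26, adjusted p = 0.0698) and did not for *Kmt2a*-HET (-0.16), *Kdm5c*-KO (-0.45) or DM mice (-0.55), and leaving out WT mouse 2, 3 or 4 ended the WT call (-0.74, -0.67 and -0.25, adjusted p = 0.102, 0.153 and 0.634). Without mouse 3 it passed in *Kdm5c*-KO (-0.66, adjusted p = 0.0634). Scaling by the spike-in RNA (ERCC) raised the median of all genes in this contrast by 0.59 and turned the *Gng7* value to 0.20, adjusted p = 0.489. With the spike-in scaling 5 of 8 genes passed in WT, *Pde10a* (-1.24), *Scn4b* (-1.71) and *Gng7* (0.13) being the others. *Pde10a* also lost its call under that scaling in *Kmt2a*-HET (-0.87) and *Kdm5c*-KO (-0.86), and *Scn4b* in *Kmt2a*-HET (-1.46).

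**Figure D2:**
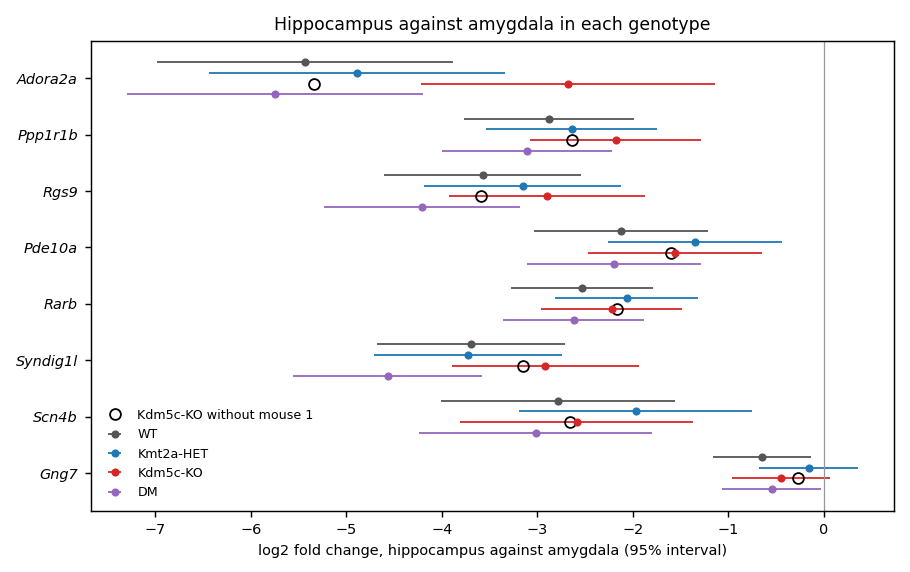
Log2 fold change of the hippocampus against the amygdala (x axis) for the 8 genes, with 95% intervals, in the 4 genotypes, and open circles for *Kdm5c*-KO without mouse 1. Values lie between -5.74 (*Adora2a*, DM) and -0.16 (*Gng7*, *Kmt2a*-HET), and *Adora2a* of *Kdm5c*-KO moves from -2.68 to -5.34 without mouse 1.

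The genes with related roles mostly had the same direction between regions. Of 9 measured striatal receptor and neuropeptide genes, 9 were lower in the hippocampus (median log2 fold change -3.20, against -0.01 for all genes tested), among them *Drd2* (-4.31 ± 0.34), *Tac1*, the substance P precursor (-3.99 ± 0.25), and *Penk*, the enkephalin precursor (-3.20 ± 0.25). Of 10 genes of striatal cAMP and Ras signalling, 9 were lower and 1 higher (median -1.31), with *Rasgrp2* at -2.70 ± 0.15, *Adcy5*, the main striatal adenylyl cyclase, at -1.59 ± 0.13, and *Gnal*, which encodes its G protein alpha subunit, at -1.20 ± 0.09. Of 11 striatal transcription factor genes, 8 were lower and 1 higher (median -1.53), with *Six3* at -5.33 ± 0.40 and *Rxrg*, a partner of retinoic acid receptors, at -3.43 ± 0.23.

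The 23 relatives of the 8 genes from the same families did not share that direction, with 9 higher, 7 lower and a median of 0.04. Of all genes tested 22.4% were higher in the hippocampus, beside the 23.9% that were lower, and small counts in this and the following lists are to be read against these shares. *Adora1*, the other abundant adenosine receptor of the brain, was higher in the hippocampus by 1.22 ± 0.06 on the log2 scale, and *Gng4*, a G protein gamma subunit gene, was lower, at -1.47 ± 0.11. Genes of other cell types moved as well. Of 6 cortical and basolateral excitatory genes 6 were higher, of 4 cholinergic interneuron genes 4 were lower, of 6 inhibitory neuron genes 4 were lower, of 9 central amygdala genes 5 were lower and 1 higher, and of 6 hypothalamic genes 6 were lower. Of 10 hippocampal subfield genes 9 were higher, of 4 thalamic genes 4 were lower, of 6 choroid plexus genes 2 were higher and 2 lower, of 6 oligodendrocyte genes 1 was lower, of 5 astrocyte genes 2 were higher and 1 lower, and of 5 microglial genes none passed. Their part in the fall of the 8 genes was not tested.

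Within a genotype the 8 genes varied more between amygdala libraries than the median gene did. Their median coefficient of variation over 4 mice was 0.685 (WT), 0.397 (*Kmt2a*-HET), 0.614 (*Kdm5c*-KO) and 0.315 (DM), against medians of 0.158, 0.0821, 0.123 and 0.108 over 13374, 13373, 13374 and 13373 genes with a mean of at least 50 normalised counts. *Scn4b* had the widest range in WT by the ratio of its highest to its lowest library (28.5), with normalised counts of 369, 4305, 6599 and 10525. In *Kdm5c*-KO its counts were 6545, 2951, 564 and 7064. In both genotypes 1 library lay far below the rest, WT replicate 1 and *Kdm5c*-KO replicate 3. In the hippocampus the medians were 0.181, 0.165, 0.563 and 0.102, against 0.116, 0.127, 0.120 and 0.106 over all genes. The *Kdm5c*-KO value of 0.563 takes in replicate 1, the highest hippocampal library for 6 of the 8 genes. It had 1259 normalised counts of *Adora2a*, against 38.8 to 45.8 in the others of its genotype.

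The 8 genes were high and low in the same amygdala libraries. *Kdm5c*-KO replicate 3 was among the lowest 2 of 16 libraries for 8 of 8 genes and WT replicate 1 for 7 of 8, and the highest library was WT replicate 4 for 6 genes and DM replicate 2 for 2. Over the 28 pairs of genes and 16 libraries the median Pearson r of log2 normalised counts was 0.938 (0.860 to 0.987), and 0.959 after genotype means were removed. The pairs share their libraries and normalisation, so these values are a description only. In the hippocampus the median was 0.412, and it was -0.00194 without *Kdm5c*-KO replicate 1.

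**Figure D3:**
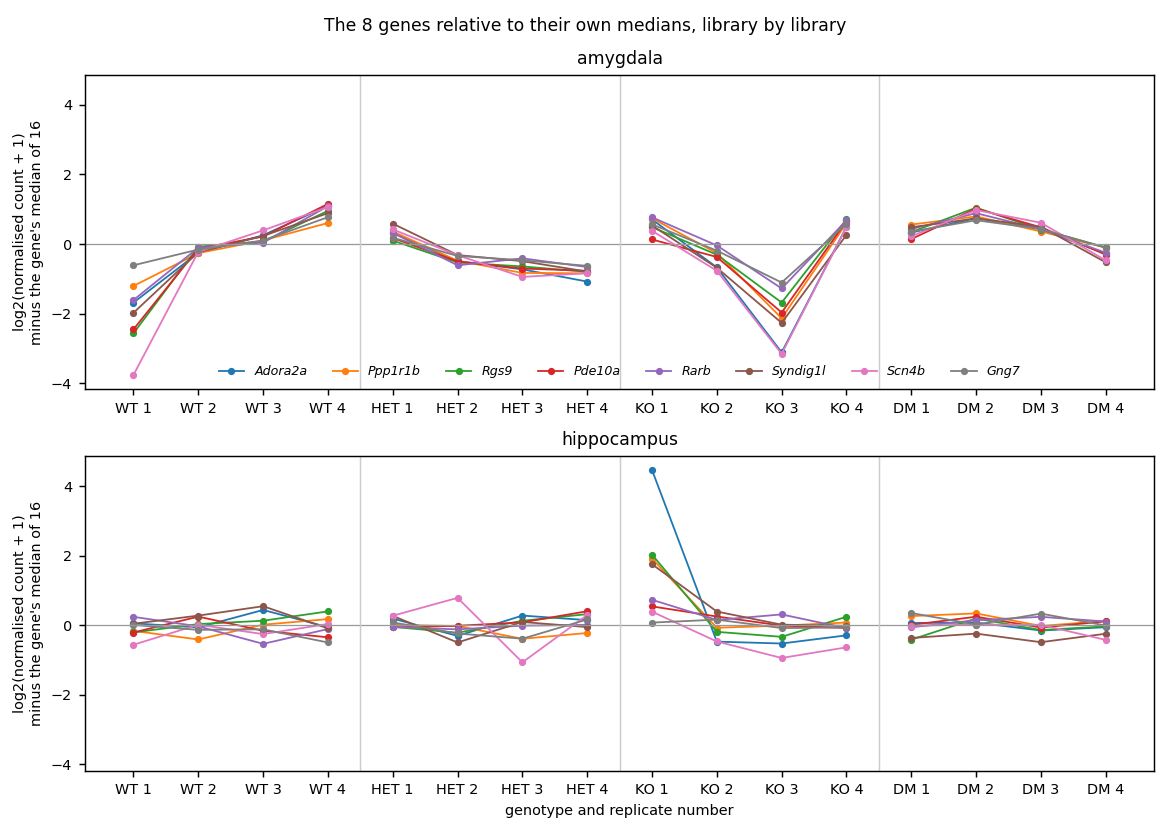
Each line is 1 gene, drawn as log2(normalised count + 1) minus its median over the 16 libraries of the region, over the libraries of each genotype in turn. The 8 lines move together in the amygdala, where WT replicate 1 and *Kdm5c*-KO replicate 3 are low, and do so less in the hippocampus, where *Kdm5c*-KO replicate 1 is high and *Scn4b* is highest in *Kmt2a*-HET replicate 2 (1537 normalised counts) and lowest in replicate 3 (425).

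Other genes followed the 8 in the amygdala, some from the striatal lists and some, such as *Inf2*, *Sh3rf2*, *Lrrc10b* and *Cd4*, from none of the lists. Over 16 libraries genes most like the mean standardised value of the 8 included *Drd2* (r = 0.993), *Inf2* (0.992), *Drd1* (0.990), *Gpr6* (0.984), *Rasd2* (0.983), *Sh3rf2* (0.981), *Lrrc10b* (0.980), *Pde1b* (0.978) and *Cd4* (0.974). *Drd1* and *Drd2* mark different medium spiny neurons and both tracked the set. *Inf2* and *Lrrc10b* differed from most of these genes in their region contrast, at -0.28 (adjusted p = 0.152) and 0.29 (adjusted p = 0.386). The summed CPM of the marker lists followed the same value with r of 0.983 for striatal receptors and neuropeptides, 0.778 for inhibitory neurons, 0.672 for cholinergic interneurons, 0.592 for oligodendrocytes, 0.562 for hippocampal subfields and -0.666 for cortical and basolateral excitatory neurons. For the central amygdala list r was -0.0209 and Spearman's rho -0.415, and for the other lists of other cells r lay between -0.301 and 0.241.

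Marker lists of other cells were read in the same libraries. In WT replicate 1 the sum for striatal receptors and neuropeptides was 375 CPM, within the range of the other 15 libraries (260 to 1291). Its sums were 202 CPM for 9 central amygdala genes (241 to 352 in the other 15) and 937 CPM for 6 inhibitory neuron genes (1166 to 1498 in the other 15). They were 71.7 CPM for 4 thalamic genes (100 to 276), 2315 CPM for 6 oligodendrocyte genes (3264 to 6981) and 316 CPM for 5 microglial genes (196 to 244). In *Kdm5c*-KO replicate 3 the striatal receptor sum was 260 CPM, the lowest of 16, as was that of the hippocampal subfield genes (422 CPM). Its inhibitory (1166 CPM), oligodendrocyte (3264 CPM) and cholinergic (33.3 CPM) sums were near the low end of the others, and its excitatory sum (918 CPM) lay within their range. The part of dissection or cell content in these differences was not tested.

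Genotype comparisons asked whether loss of *Kmt2a* or *Kdm5c*, or both, changed the 8 genes. In the amygdala 0 of 8 passed DESeq2 in any of the 6 comparisons, with 0 of 8 at an unadjusted p under 0.05, and edgeR likewise gave 0 and 0. Over all genes 694 to 1474 stood at that unadjusted level with DESeq2 and 557 to 1212 with edgeR. The shares of all genes called were 0.00329% for *Kmt2a*-HET against WT, 0.756% for *Kdm5c*-KO against WT, 0.99% for DM against WT, 0.00329% for DM against *Kdm5c*-KO, 0.805% for DM against *Kmt2a*-HET and 0.00329% for the interaction, which compares DM with both single mutants added together. Standard errors of the log2 fold changes were 0.36 to 0.79 outside the interaction.

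The estimates in the amygdala share libraries between genes and comparisons. In *Kmt2a*-HET they ran from -0.56 (*Adora2a*) to -0.19 (*Syndig1l*), with the 95% interval of *Adora2a* from -1.87 to 0.76. In *Kdm5c*-KO they ran from -0.34 (*Scn4b*) to 0.14 (*Ppp1r1b*). In DM they ran from 0.19 (*Adora2a*) to 0.49 (*Ppp1r1b*) against WT and from 0.53 (*Syndig1l*) to 0.91 (*Rgs9*) against *Kmt2a*-HET, where the smallest unadjusted p was 0.0730 and the smallest adjusted p 0.837. Single WT libraries turned some of these signs. Without WT replicate 4, *Syndig1l* in *Kmt2a*-HET went from -0.19 to 0.25, and without WT replicate 1, *Adora2a* in DM went from 0.19 to -0.12. *Adora2a* in *Kmt2a*-HET was -0.91 without *Kmt2a*-HET replicate 1 and -0.035 without WT replicate 4. None of these values passed, and they do not show that the genotypes were alike.

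**Figure D4:**
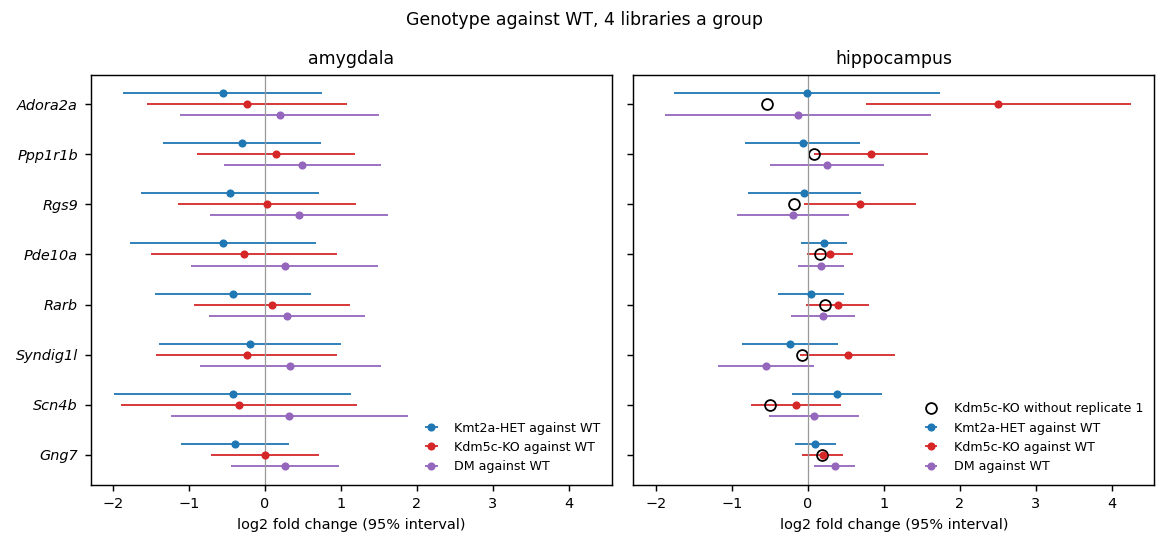
Log2 fold change of each mutant against WT (x axis) for the 8 genes in the amygdala and hippocampus, 4 libraries a group, with 95% intervals, and open circles for *Kdm5c*-KO without hippocampal replicate 1. Intervals in the amygdala all include 0, and the *Adora2a* value of *Kdm5c*-KO hippocampus moves from 2.51 to -0.54 without that library.

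In the hippocampus 0 of the 7 genes with a p passed in the 6 comparisons, and *Adora2a* had none in any of the 6 because of the outlier filter of DESeq2. The shares of all genes called were 0% for *Kmt2a*-HET against WT, 1.01% for *Kdm5c*-KO against WT, 0.881% for DM against WT, 0.0067% for DM against *Kdm5c*-KO, 0.606% for DM against *Kmt2a*-HET and 0% for the interaction. At an unadjusted p under 0.05, DESeq2 gave 1 gene and edgeR 2 in *Kdm5c*-KO against WT, 1 and 1 in DM against WT, 2 and 3 in DM against *Kdm5c*-KO, and 0 and 1 for the interaction. Over all genes DESeq2 gave 1657, 1590, 1352 and 571 at that level, where 19302, 19302, 29841 and 29841 had an adjusted p, and edgeR gave 1373, 1352, 1160 and 410. *Gng7* had the smallest p in DM against WT (0.36 ± 0.14, adjusted p = 0.377). *Syndig1l* was 434, 169, 130 and 127 normalised counts in *Kdm5c*-KO and 99.3, 108, 91.1 and 108 in DM, which did not overlap. Its log2 fold change of DM against *Kdm5c*-KO was -1.08 ± 0.32 (adjusted p = 0.482), against -0.48 without *Kdm5c*-KO replicate 1 and -1.18 (adjusted p = 0.0989) without *Kdm5c*-KO replicate 2. The share of all genes without overlap between *Kdm5c*-KO and DM is not given here.

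Replicate 1 of *Kdm5c*-KO hippocampus was the highest of 16 libraries for 6 of 8 genes. Its counts were 1259 for *Adora2a* (38.8 to 45.8 in the other 3 mice of its genotype), 8092 for *Ppp1r1b* (2043 to 2268), 801 for *Rgs9* (155 to 232) and 434 for *Syndig1l* (127 to 169). The log2 fold change of *Adora2a* against WT was 2.51 ± 0.89 with it and -0.54 ± 0.24 (adjusted p = 0.710) without it. Without the outlier filter the adjusted p for this difference was 0.235, and with edgeR it was 0.438. The 3 other mice of the genotype lay below all 4 WT mice for this gene, and the share of all genes that separate in this way is not given here.

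That library also held the highest sums of several marker lists. The 6 choroid plexus genes summed to 4333 CPM against 11.7 to 1077 in the other 15 libraries, with 6 of 6 genes highest there. The 9 striatal receptor and neuropeptide genes summed to 343 CPM against 46.9 to 110, the 4 cholinergic genes to 7.70 CPM against 0.207 to 1.20, and the 6 inhibitory neuron genes to 738 CPM against 376 to 657. The 6 excitatory neuron genes (1877 CPM) and the 10 hippocampal subfield genes (733 CPM) were the lowest of 16. Their part in the *Adora2a* value was not tested.

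Whether a genotype effect differed between the regions was tested as the difference of the differences. Among the 8 genes, 0 passed for *Kmt2a*-HET, 0 for *Kdm5c*-KO and 0 for DM with DESeq2 or edgeR, and the shares of all genes called were 0%, 0.00624% and 0.00936%. At an unadjusted p under 0.05, both tools gave 1 gene for *Kdm5c*-KO, *Adora2a* (638 of all genes with DESeq2, 460 with edgeR), and none for the others. Its value was 2.75 ± 1.11 (unadjusted p = 0.0135), and 0.10 (unadjusted p = 0.897) without *Kdm5c*-KO mouse 1. Of the other genes of the pathway, none of the 9 receptor and neuropeptide, 10 cAMP and Ras and 11 transcription factor genes passed in any genotype comparison. Of all genes, 0% to 1.01% were called in these comparisons, so a count of 0 in lists of this size is close to that share. Of the 23 family relatives *Rxra*, a partner of retinoic acid receptors, was higher in *Kdm5c*-KO amygdala (0.39 ± 0.10, adjusted p = 0.0408), and *Rgs7*, a relative of *Rgs9*, was lower in *Kdm5c*-KO hippocampus (-0.31 ± 0.09, adjusted p = 0.0745).

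The start sites of *Gng7* differed in direction. In the transcript table its 6 transcripts begin at 3 places, which were summed as start sites (starts within 500 bases of each other). The distal start (Gng7-201, Gng7-203 and Gng7-206) lies at chr10:81014913-81014945, the internal start (Gng7-202 and Gng7-204) at chr10:81001365-81001378, and the third (Gng7-205) at chr10:80998190. The starts of Gng7-201 and Gng7-204 are 13547 bases apart. Their transcripts differ in their first exons, of 70 bases in Gng7-201 and 146 in Gng7-204, and share the later exons, which hold the coding sequence. The expected counts of the start sites are therefore estimates that rest on the fragments reaching these first exons, and this feature was chosen after the data were seen.

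The 250 bases before the starts of Gng7-201 (distal) and Gng7-202 (internal) are shown because the results differ between the 2 starts. They are taken from RefSeq (GRCm38.p6, the build of mm10), minus strand, 5′ to 3′, at chr10:81014926-81015175 for the distal and chr10:81001366-81001615 for the internal start, and capitals mark the match to a motif.
Gng7 distal: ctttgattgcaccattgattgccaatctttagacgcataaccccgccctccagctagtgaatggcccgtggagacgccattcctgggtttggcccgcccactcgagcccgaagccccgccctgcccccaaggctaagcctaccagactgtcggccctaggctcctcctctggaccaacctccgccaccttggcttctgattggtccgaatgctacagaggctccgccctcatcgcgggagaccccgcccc
Gng7 internal: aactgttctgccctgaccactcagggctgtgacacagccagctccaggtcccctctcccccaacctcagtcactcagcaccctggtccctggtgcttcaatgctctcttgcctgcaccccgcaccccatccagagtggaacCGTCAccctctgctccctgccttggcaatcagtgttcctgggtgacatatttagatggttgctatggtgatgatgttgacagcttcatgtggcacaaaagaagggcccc
The distal sequence is 62.8% G or C with 15 CpG and the internal sequence 57.2% with 2 CpG, against medians of 52.4% and 6 over 32851 promoters of the same length. The motifs AGGTCA (a nuclear receptor half-site, in 14.0% of these promoters) and TGACG (a cAMP response half-site, in 17.8%) were searched on both strands. The internal sequence holds 1 match, CGTCA, which is TGACG on the opposite strand, and a match is a description of letters only.

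The 2 starts of *Gng7* were used in different proportions in the 2 regions. The distal start took a mean 77.6% of the *Gng7* counts of the amygdala and 52.8% of those of the hippocampus, and its share was lower in the hippocampus in 16 of 16 mice. The internal start took 10.4% of amygdala and 37.4% of hippocampal counts, and its normalised counts were higher in the hippocampus in 16 of 16 mice. In a DESeq2 fit over all start sites of all genes, the distal start fell by 1.08 ± 0.16 on the log2 scale from amygdala to hippocampus (adjusted p = 4.59e-10) and the internal start rose by 1.57 ± 0.11 (adjusted p = 1.51e-43). With spike-in scaling the distal value was -0.43 (adjusted p = 0.145) and the internal value 2.23. Of the 25 start sites of the 8 genes 21 had an adjusted p and 16 passed, and the internal start of *Gng7* was the only one of them that was higher in the hippocampus, against 33.0% of all start sites called in either direction.

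The internal start also differed between genotypes in the hippocampus. Its normalised counts were 1339, 1486, 1264 and 1043 (WT), 1795, 1425, 1232 and 1840.1 (*Kmt2a*-HET), 1851, 3023, 2879 and 2412 (*Kdm5c*-KO), and 3361, 2737, 3824 and 2660.1 (DM). All 8 libraries without *Kdm5c* lay above all 8 libraries with it, although *Kdm5c*-KO replicate 1 did so by a narrow margin over *Kmt2a*-HET replicate 4. The share of all start sites that separate in this way is not given here, and this start was chosen after the data were seen. Group means were 1283 ± 185, 1573 ± 294, 2541 ± 529 and 3146 ± 551 (SD, n = 4 each).

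The rise was 0.99 ± 0.18 on the log2 scale in *Kdm5c*-KO against WT (adjusted p = 4.05e-05), 1.29 ± 0.18 in DM against WT (adjusted p = 1.78e-09) and 1.001 ± 0.18 in DM against *Kmt2a*-HET (adjusted p = 2.86e-05, DESeq2). The comparisons of *Kdm5c*-KO with WT and of DM with *Kmt2a*-HET share no library. With edgeR the adjusted p values were 0.0455, 0.00522 and 0.0397, and the rise passed without each of the 8 libraries in turn in all 3 comparisons (0.90 to 1.11, 1.18 to 1.36 and 0.89 to 1.08). In *Kmt2a*-HET against WT the value was 0.29 ± 0.18 (adjusted p = 0.999).

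Of the 25 start sites of the 8 genes, 15 had an adjusted p in each of these comparisons, and the internal start of *Gng7* was the 1 that passed, against 0.593%, 0.558% and 0.396% of all start sites, and 0 passed in *Kmt2a*-HET (0.0317% of all). With spike-in scaling the rise lost its call, at 1.30, 0.88 and 0.57 with adjusted p of 0.9998, 0.813 and 1. That scaling moved the median of all genes by 0.39, -0.26 and -0.49 in the 3 comparisons, relative to which the rises were 0.91, 1.15 and 1.06. Taking off the median largely removes the scaling again, so these values cannot tell whether the rise holds under it.

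The distal start did not rise with it. Its normalised counts in the hippocampus were 3839, 3068, 3587 and 2484 (WT), 3746, 2755, 2507 and 3712 (*Kmt2a*-HET), 3543, 2505, 2027 and 2453.5 (*Kdm5c*-KO), and 3147, 2352, 2447 and 2306 (DM), and the groups overlapped. Log2 fold changes were -0.29 ± 0.20 in *Kdm5c*-KO (adjusted p = 0.988) and -0.34 ± 0.20 in DM (adjusted p = 0.876) against WT. The share of the internal start was 25.9 ± 2.4% (WT), 29.6 ± 0.68% (*Kmt2a*-HET), 44.7 ± 9.7% (*Kdm5c*-KO) and 49.3 ± 3.3% (DM).

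In the amygdala the internal start had normalised counts of 875, 512.5, 283 and 407 (WT), 450, 512, 443 and 578 (*Kmt2a*-HET), 744, 975, 923 and 931 (*Kdm5c*-KO), and 819, 757, 794.5 and 982 (DM). WT replicate 1, the library that was low for the 8 genes, was the only one with *Kdm5c* that overlapped with those without it. The log2 fold changes were 0.77 ± 0.25 in *Kdm5c*-KO against WT (unadjusted p = 0.00210, adjusted p = 0.262), 0.69 ± 0.25 in DM against WT (adjusted p = 0.376) and 0.76 ± 0.25 in DM against *Kmt2a*-HET (adjusted p = 0.281), none of which passed with DESeq2 or edgeR in the fits by genotype alone. Without WT replicate 1 they were 1.16 in *Kdm5c*-KO (adjusted p = 5.04e-08) and 1.08 in DM (adjusted p = 1.02e-06). Over all start sites 0.495%, 0.62% and 0.442% were called in these 3 comparisons and 0.0881% in *Kmt2a*-HET against WT. Of the 25 start sites 20, 19, 20 and 21 had an adjusted p in these 4 comparisons, and 0 were called by DESeq2 or edgeR. At an unadjusted p under 0.05 (DESeq2) stood 3, 3, 5 and 1 of the 25. Among all start sites 1704, 2000, 1795 and 1418 did so, where 32148, 31118, 32148 and 36331 had an adjusted p.

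The starts also differed in how they followed the other genes. Over the 16 amygdala libraries, r with the mean standardised value of the 8 genes was 0.960 for the distal start, 0.976 for the third start and -0.227 for the internal start. *Gng7* as a whole enters that value, and the libraries share their normalisation, so these are descriptions.

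**Figure D5:**
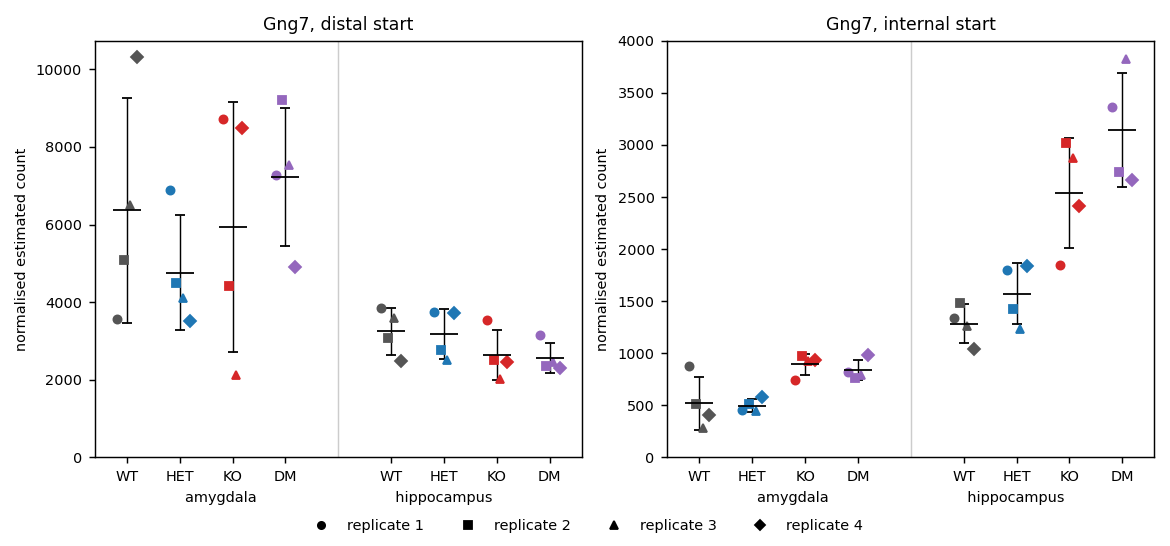
Normalised estimated counts (linear axis from 0, a scale for each start) of the distal and internal start of *Gng7* in each library, with horizontal bars at the mean and error bars of 1 SD over 4 mice. The internal start is higher in the hippocampus than in the amygdala and, within the hippocampus, higher in *Kdm5c*-KO (2541) and DM (3146) than in WT (1283) and *Kmt2a*-HET (1573).

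Each of the other 7 genes had 1 start site with at least 74.8% of its counts in the amygdala. *Adora2a*, *Ppp1r1b*, *Syndig1l* and *Scn4b* had 97.0% to 100% of their counts at the leading start, *Pde10a* 96.5%, *Rarb* 94.7% and *Rgs9* 74.8%. In the hippocampus these shares were 97.3% for *Adora2a*, 91.5% for *Pde10a*, 99.0% for *Rarb* and 77.9% for *Rgs9*.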

How the data were processed

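RNA of the amygdala and hippocampus of 16 mice was sequenced by the study from oligo-dT libraries (directional kit, ERCC spike-in, paired-end reads). The deposited gene and transcript tables hold expected counts, part of them not whole. Per the labels the authors used STAR 2.5.3a, featureCounts of Subread 1.5.0, deepTools 3.1.3 and DESeq2 1.14.1 on mm10; the estimator behind the expected counts is not given in the sources used here. Expected counts were rounded, the 92 ERCC rows were left out, and symbols were matched with GENCODE M21 (53620 of 53715 genes). Tests used DESeq2 1.42.0 (Wald, 16 libraries of a region by genotype, or all 32 by group) in R 4.3.3, with Benjamini-Hochberg adjustment over all genes and calls under 0.1. Transcript counts were summed over start sites (84781 in all) and fitted alike. Replicates are different mice, and replicate pairs differed by more than counting error (chi-square per gene 3.75 to 124 over 48 pairs). The floor of 3 counts covers counting error only, whereas the intervals are those of DESeq2 and take in the spread between mice. A mouse's regions were paired through its number (deviations correlated at a median r of 0.197, over 0.1 in 14 of 16 mice). Same-numbered mice of different genotypes were not paired.

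Alternatives were edgeR 4.0.16 with TMM, TMM or ERCC size factors, a filter of 10 counts in 4 libraries, an adjusted p under 0.05, 2-group fits, a replicate block, a term for replicate 1 and leaving out each library. The start sites with their alternatives, the fits without the outlier filter, and the correlations and spreads without libraries that stand apart were added after the data were seen. The 8 genes and the 15 lists (121 genes, 120 of them in the table) were chosen with earlier results of these data known. Named genes were the 8, from each list up to 3 called genes per comparison by adjusted p, and the 10 (amygdala) or 5 (hippocampus) genes most correlated with the mean standardised value of the 8 among those with a mean of at least 50 normalised counts; some of these are not reported here. Promoters were read from RefSeq, which matched 5 of the 8 genes; *Adora2a*, *Ppp1r1b* and *Syndig1l* are named only.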

Additional observations from a re-analysis of the deposited data

Results flagged for a closer look

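Of 64 groups of 4 libraries (8 genes in 8 groups), 5 had 1 library set apart by a gap to its neighbour that took nearly all of the group's range, a criterion that chance meets in about 1 in 20 groups. In the hippocampus of *Kdm5c*-KO, replicate 1 was high for *Adora2a* (1259 normalised counts against 38.8 to 45.8), *Ppp1r1b* (8092 against 2043 to 2268), *Rgs9* (801 against 155 to 232) and *Syndig1l* (434 against 127 to 169). These 4 values come from 1 library and are not independent of each other. In the hippocampus of DM, replicate 4 was low for *Scn4b* (664.5 normalised counts against 883 to 900.5).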

How the results depend on the processing

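Neither TMM scaling, the low-count filter nor edgeR moved a count of calls among the 8 genes or their start sites over 1.5 times or turned a direction of theirs. Over all genes edgeR called fewer (69 against 144 in *Kdm5c*-KO and 89 against 211 in DM amygdala, 61 against 158 in DM against *Kmt2a*-HET amygdala, and 70 against 195, 63 against 170 and 54 against 117 in the hippocampus), and over all start sites 0 to 41 against 17 to 193 in the genotype comparisons. For ERCC scaling and left-out libraries the cause was not tested. ERCC scaling left 5 of the 8 genes called between regions in WT. It turned *Gng7* between regions (WT 0.13, 0.34 *Kmt2a*-HET, 0.36 *Kdm5c*-KO, mean 0.20), in DM against WT (-0.062) and *Kdm5c*-KO (-0.55) in the hippocampus, in the hippocampal interaction (-0.68) and in the region difference of DM (-0.17). It also turned *Rarb* in the amygdala (DM against *Kdm5c*-KO -0.22, interaction -0.15), *Scn4b* (DM against *Kdm5c*-KO, hippocampus, -0.35; region difference of *Kdm5c*-KO -0.23), *Ppp1r1b* (DM against *Kmt2a*-HET, hippocampus, -0.16) and *Syndig1l* (*Kmt2a*-HET amygdala 0.14). Of the *Gng7* starts it turned the internal in *Kmt2a*-HET amygdala (0.11) and the distal in *Kdm5c*-KO amygdala (0.16) and *Kmt2a*-HET hippocampus (0.031). In the hippocampus the internal start lost its call in *Kdm5c*-KO (1.30) and DM (0.88) against WT and DM against *Kmt2a*-HET (0.57), leaving 0 start sites called in each. The median correlation among the 8 genes in the hippocampus was 0.792 with ERCC scaling, 0.169 with Spearman's rho and 0.0215 without the 2 farthest libraries.

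Replicate numbers were not taken to pair mice of different genotypes, since the correlation of deviations passed 0.1 in 10 of 24 same-numbered pairs of the amygdala (16 of 72 others) and 8 of 24 of the hippocampus (18 of 72 others). Median r was 0.0788 (others -0.0581) and -3.52e-05 (others -0.00541), and the own number was best in 9 and 7 of 16 libraries, so a partial relation by number remains possible in the amygdala. With the replicate block, *Ppp1r1b* in *Kdm5c*-KO amygdala was -0.047, and beside *Gng7* between regions of WT mice no call of a gene changed. The start sites called were 1 for *Kmt2a*-HET, 2 for *Kdm5c*-KO and 2 for DM amygdala, 3 in DM against *Kmt2a*-HET amygdala, 1 in *Kmt2a*-HET hippocampus and 2 in DM against *Kmt2a*-HET hippocampus. The block raised calls over all start sites too, to 2.81% to 3.53% (amygdala) and 2.56% to 3.16% (hippocampus), from at most 0.62%. The internal start of *Gng7* then passed in the amygdala at 0.83 in *Kdm5c*-KO, 0.74 in DM and 0.76 in DM against *Kmt2a*-HET.

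Leaving out each library in turn gave these log2 ranges. Against WT in the amygdala they were -0.57 to 0.25 for *Syndig1l* in *Kmt2a*-HET, -0.17 to 0.48 for *Ppp1r1b* and -0.73 to 0.20 for *Scn4b* in *Kdm5c*-KO, and -0.12 to 0.72 for *Adora2a* in DM. In *Kdm5c*-KO hippocampus they were -0.54 to 2.88 for *Adora2a*, -0.18 to 0.93 for *Rgs9*, -0.50 to 0.0056 for *Scn4b* and -0.070 to 0.71 for *Syndig1l*. In DM against *Kdm5c*-KO they were -0.084 to 0.44 for *Rarb* in the amygdala and, in the hippocampus, -3.01 to 0.42 for *Adora2a*, -0.20 to 0.018 for *Pde10a* and -0.78 to 0.18 for *Ppp1r1b*, with 0 to 1 of the 8 called. The hippocampal interaction ran from -3.00 to 0.42 for *Adora2a* and -0.031 to 0.15 for *Gng7*. Region differences ran from -0.30 to 0.35 for *Gng7* in DM, -0.26 to 0.64 for *Scn4b* in *Kdm5c*-KO and -0.57 to 0.23 for *Syndig1l* in *Kmt2a*-HET. The internal start of *Gng7* ran from -0.27 to 0.32 in *Kmt2a*-HET, 0.57 to 1.16 for *Kdm5c*-KO and 0.49 to 1.08 for DM amygdala, and the distal from -0.35 to 0.24 in *Kdm5c*-KO amygdala and -0.14 to 0.065 in *Kmt2a*-HET hippocampus. Start sites called were 0 to 1 in each of the 4 amygdala comparisons and in *Kmt2a*-HET hippocampus, and 1 to 2 in *Kdm5c*-KO and DM hippocampus against WT. The hippocampal correlation ran from -0.00194 to 0.459. Leaving out libraries was not run for the region contrast of start sites.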

Other observations

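In hippocampal libraries the genes that correlated most with the mean standardised value of the 8 included *Penk*, the enkephalin precursor (r = 0.928 over 16 libraries), *Cfap74* (0.893), *Mxra8* (0.867) and *Tnfrsf1a* (0.852). These values rest on 1 library, *Kdm5c*-KO replicate 1. Without it r was 0.423 for *Penk*, 0.557 for *Cfap74*, 0.610 for *Mxra8* and 0.471 for *Tnfrsf1a*, a check chosen after seeing the data. *Penk* ranged from 380 to 3434 normalised counts there. The highest value of the 8 genes' mean, 2.47 on its standardised scale against -0.56 to 0.30 in the others, belonged to that library.

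Levels of a gene in the amygdala and hippocampus of the same mouse were compared over 16 mice as a description. Pearson's r of log2 normalised counts was 0.503 for *Scn4b*, 0.472 for *Ppp1r1b*, 0.349 for *Rgs9* and 0.311 for *Adora2a*, and between -0.0567 and 0.0849 for *Rarb*, *Pde10a*, *Gng7* and *Syndig1l*. Spearman's rho, which weighs the high values of *Kdm5c*-KO hippocampus replicate 1 less, was 0.806 for *Ppp1r1b*, 0.488 for *Rgs9*, 0.415 for *Scn4b*, 0.247 for *Adora2a* and -0.294 for *Pde10a*, and between -0.179 and 0.0765 for the other 3. The regions of 1 mouse were dissected separately, and the genotypes are pooled in these values.

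Among genes of other cell types, *Spink8*, a marker of hippocampal pyramidal cells and the 1 called of 10 subfield genes, was higher in the hippocampus of *Kdm5c*-KO (1.28 ± 0.23, adjusted p = 3.32e-05) and DM (1.43 ± 0.23, adjusted p = 1.06e-06) against WT and in DM against *Kmt2a*-HET (1.09 ± 0.23, adjusted p = 0.00143; DESeq2), the 3 comparisons in which the internal start of *Gng7* was also higher. Of all genes, 1.01%, 0.881% and 0.606% were called in these comparisons. Of 6 choroid plexus genes 2 passed in DM amygdala, as *Ttr* (4.99 ± 1.44, adjusted p = 0.0659) and *Kcnj13* (2.57 ± 0.60, adjusted p = 0.00544) were higher there against WT, where 0.99% of all genes were called. Both also passed in DM against *Kmt2a*-HET (5.56 ± 1.44, adjusted p = 0.0267, and 2.11 ± 0.59, adjusted p = 0.0586), where 0.805% of all genes were called. The summed level of the 6 was 1741 CPM in DM replicate 1 and 338 CPM in replicate 3, against 54.1 and 44.2 CPM in the other DM libraries and 50.1 to 53.7 CPM in WT. Of 5 astrocyte genes 1, *Gfap*, was higher in DM hippocampus against WT (0.68 ± 0.16, adjusted p = 0.00628), where 0.881% of all genes were called.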
